A study of Mus musculus with 8 samples.

Results

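Fatty acid oxidation in the liver was followed through 39 genes in RNA-seq counts from 8 mouse liver libraries. The genes were taken by symbol from a list drawn up by function and are 39 of the 31910 genes in the count table. They comprise 18 genes of mitochondrial beta-oxidation and ketone body formation, 8 genes of peroxisomal beta-oxidation and omega-oxidation, and 13 further genes that are acyl-CoA enzymes, carnitine handling genes, transcription factors or known targets of the fatty acid receptor PPARalpha. The rule for choosing them uses no expression value, though earlier results of these libraries were known when the list was made.

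Each library came from frozen liver of a mouse given an adeno-associated virus, AAV2/9-SA in the 4 SA libraries and AAV2/9-Ctrl in the 4 Ctrl libraries, and the vector is the labelled difference between the groups. The study design gives 4.8e10 vector genomes per mouse by tail vein after 7 weeks of feeding, and it lists 3 feeding schemes, namely 24 weeks on high-fat food, 16 weeks on food rich in fat and cholesterol together with sugar in the drinking water, and normal chow. Which of these diets each library had, the promoter of the vector, and the strain, sex and age of the mice are not given in the sources used here. The series title speaks of a bacterial protein, steatohepatitis and binding to acetyl-CoA carboxylase, the enzyme whose product, malonyl-CoA, inhibits carnitine palmitoyltransferase 1. The question put to these genes was whether the transcripts of fatty acid oxidation differed between SA and Ctrl, and whether the mitochondrial genes differed from the peroxisomal and omega-oxidation genes in this.

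Hepatocytes burn fatty acids by several routes. Long chains are activated to acyl-CoA, cross into mitochondria on carnitine and are shortened by acetyl-CoA units, which in fasting become ketone bodies. Peroxisomes shorten very long chains, and cytochrome P450 enzymes of the Cyp4a family oxidise the omega end of fatty acids in the endoplasmic reticulum. PPARalpha, a nuclear receptor activated by fatty acids, controls genes of all these routes in mouse liver, and the Cyp4a and Acot genes are among its most inducible targets there.

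Levels are given as CPM, the counts of a gene relative to the size of its library after TMM scaling, so they compare libraries and not genes. Fold changes are log2 values for SA over Ctrl with their standard error (SE), from a quasi-likelihood F test in edgeR with Benjamini-Hochberg adjustment over all 12358 genes tested. Of the 39 genes, 36 had counts enough to be tested. SA 4 held 28184001 counts, and the other 7 libraries held 14114145 to 15922829. The libraries carried hepatocyte transcripts at 84335 to 123215 CPM summed over the 11 of 12 hepatocyte markers in the table, while all 6 kidney markers were at 0 in every library and 6 of 10 skeletal muscle markers were at 0. Stellate cell markers summed to 348 to 939.5 CPM in Ctrl and 286 to 357 CPM in SA, with Lrat at 0 throughout. A marker at 0 in these counts need not be absent. Etfb and Acaa1a, given below, had almost no counts but clear values in the authors' separate FPKM table. The share of mitochondrially encoded transcripts was 9.23% in Ctrl 4, beside 3.55 to 4.88% elsewhere. In bulk liver, fewer cells of a type and less RNA per cell cannot be told apart.

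None of the 36 tested genes passed an adjusted p under 0.05 between SA and Ctrl. The smallest adjusted p was 0.571 with edgeR, and 4 genes were under an unadjusted p of 0.05. DESeq2 also called 0 of them, with a smallest adjusted p of 0.298 (Benjamini-Hochberg). Over all genes, edgeR called 0.0162% (2 of 12358) and DESeq2 called 0.346% (60 of 17359). The log2 fold change was above 0 for 22 of the 36 genes and below 0 for 14, so 61.1% were above 0, beside 48.7% of all tested genes. The median was 0.06 for the 36 genes and -0.01 for all tested genes. The genes at an unadjusted p under 0.05 were all higher in SA: the thioesterases Acot1 and Acot4, the omega-hydroxylase Cyp4a31 and the carnitine transporter Slc22a5. They make up 11.1% of the tested members. Of all tested genes, 2.91% were higher in SA and 3.29% were lower at that limit, which set no direction in advance.

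**Figure D1:**
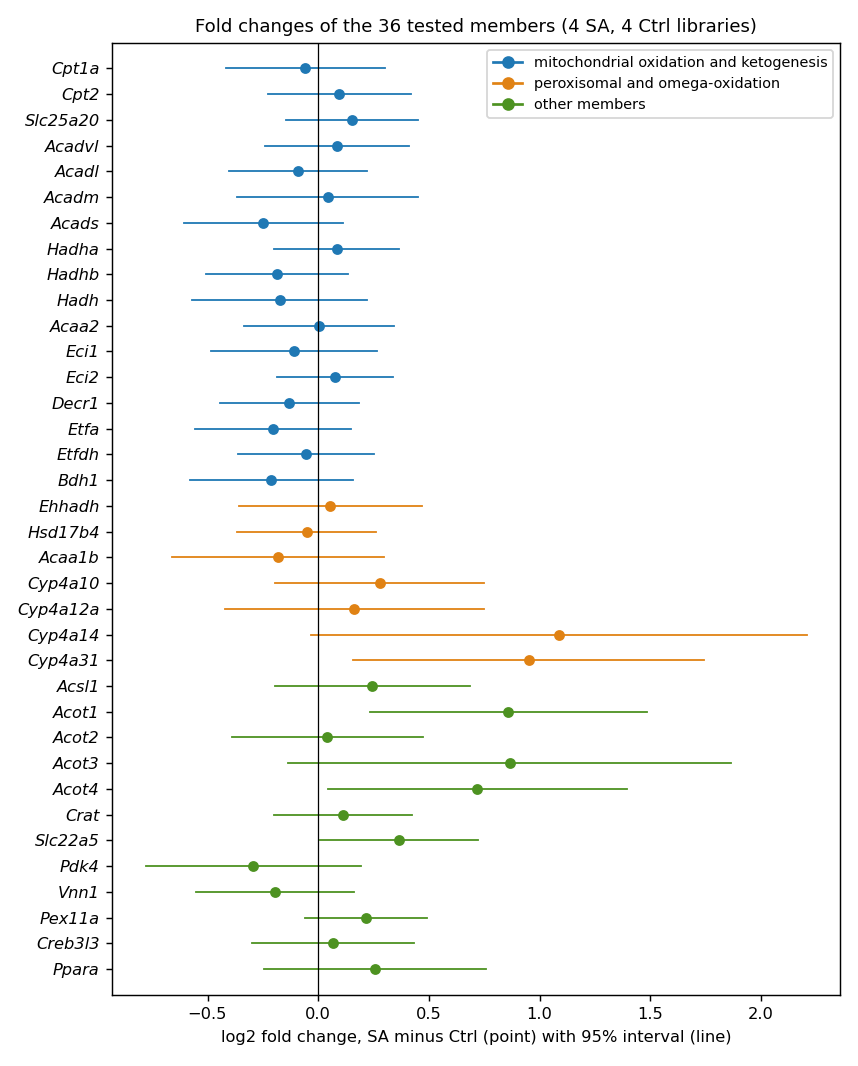
Log2 fold change of each tested gene (SA minus Ctrl, x axis) with its 95% interval from edgeR, in 3 colours for mitochondrial, peroxisomal and omega-oxidation, and other members, from 4 libraries a group. Mitochondrial genes lie between -0.25 and 0.15, and the points farthest from 0 are Cyp4a14 (1.09), Cyp4a31 (0.95), Acot3 (0.87) and Acot1 (0.86).

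With all 8 libraries the mitochondrial genes sat close to 0 as a set. Of 18 genes 17 were tested, with a median log2 fold change of -0.06 and a range of -0.25 to 0.15, 7 above 0 and 10 below. Their 95% intervals from the counts all lay between -0.61 and 0.45, which limits the differences that these counts leave possible for any one of them. Adjusted p ran from 0.971 to 0.998 (edgeR). With 1 library left out, the median ranged from -0.15 (without Ctrl 3) to -0.01 (without Ctrl 2). Without SA 4 it was -0.14, and Acads had -0.40 (unadjusted p = 0.0315, edgeR). Hadhb was far lower in SA in the FPKM table (-1.67), as given below.

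Entry of long chains into mitochondria runs through 3 of these genes. Cpt1a, the malonyl-CoA-sensitive step that forms acylcarnitine, had 767, 853, 660 and 979 CPM in the Ctrl libraries, in the order 1 to 4, and 907, 675, 799 and 747 CPM in the SA libraries, in the same order. The groups overlapped over most of their range, with a mean of 815 ± 135 CPM (SD, n = 4) in Ctrl and of 782 ± 97.6 in SA. Its log2 fold change was -0.06 ± 0.17 (SE), with a 95% interval of -0.42 to 0.30 (adjusted p = 0.996, edgeR). The carnitine-acylcarnitine carrier Slc25a20 had 0.15 and the inner-membrane transferase Cpt2 had 0.10.

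The 8 genes of the beta-oxidation spiral follow. Acaa2, the mitochondrial thiolase and the most abundant of them in CPM, had 1099, 1295, 954 and 1041 CPM in Ctrl and 1035, 1084, 1014 and 1269 CPM in SA. Its SA values fell inside the range of the Ctrl values, and its log2 fold change was 0.00 ± 0.16 (SE, 95% interval -0.33 to 0.34). The acyl-CoA dehydrogenases, which take the first step on chains of different length, had 0.09 (Acadvl, very long chains), -0.09 (Acadl, long), 0.04 (Acadm, medium) and -0.25 (Acads, short). Acads was the lowest of the mitochondrial genes, with a 95% interval of -0.61 to 0.11. The trifunctional protein subunits Hadha and Hadhb had 0.08 and -0.19, and the short-chain hydroxyacyl-CoA dehydrogenase Hadh had -0.17.

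Unsaturated chains need auxiliary enzymes. Decr1, the dienoyl-CoA reductase, had 295, 299, 224 and 299 CPM in Ctrl and 238, 260, 234 and 288 CPM in SA, so that all SA libraries lay below 3 of the 4 Ctrl libraries and above Ctrl 3. Its log2 fold change was -0.13, beside -0.11 for the enoyl-CoA isomerase Eci1 and 0.07 for Eci2.

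Electrons from the dehydrogenases pass to the electron transfer flavoprotein. Its alpha subunit Etfa had 392, 426, 288 and 418 CPM in Ctrl and 306, 347, 289 and 380 CPM in SA, with Ctrl 3 the lowest of the 8 libraries. The log2 fold change was -0.21 ± 0.16 (SE), and that of the oxidoreductase Etfdh was -0.06. The beta subunit Etfb had 1 count in SA 2 and 0 in the other 7 libraries and was not tested. In the FPKM table, which holds fragments per kilobase scaled to depth and computed separately by the authors, Etfb was at 112 to 390 in every library. The count table and the FPKM table thus give opposite pictures of Etfb, and no level for it is taken from the counts.

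Bdh1, the mitochondrial dehydrogenase that makes 3-hydroxybutyrate from acetoacetate, had 441, 422, 305 and 328 CPM in Ctrl and 322, 322, 264 and 383 CPM in SA. SA 3 was the lowest and Ctrl 1 the highest, with overlap between the groups and a log2 fold change of -0.21 ± 0.17 (SE). Ctrl 3 was the lowest of the 8 libraries for 7 of the 17 tested mitochondrial genes, and SA 4, the library with the most counts, was the highest for 7. A part of depth in the SA 4 values was not tested.

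Of the 4 peroxisomal beta-oxidation genes 3 were tested, with log2 fold changes of -0.18 to 0.05 and a median of -0.05. The most abundant of them, the peroxisomal thiolase Acaa1b, had 3374, 3593, 2845 and 2365 CPM in Ctrl and 2155, 2502, 2210 and 3880 CPM in SA. SA 4 was the highest library and the other SA libraries, with Ctrl 4, were the lowest, and the log2 fold change was -0.18 ± 0.22 (SE). The bifunctional enzymes Ehhadh and Hsd17b4 had 0.05 and -0.05. Acaa1a, the paralog of Acaa1b, had 0 counts in all 8 libraries. Its FPKM values were 263 to 477 in every library, so no level for it is taken from the counts. Of the 100-base windows in the longest GENCODE M21 transcript of Acaa1b, 30.5% also occur in other genes (22.6% in Acaa1a), so how the authors' counting shared reads between the pair bears on both, and this was not tested.

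The omega-hydroxylases were the one group of these 2 routes in which every gene was above 0, with a median log2 fold change of 0.61 over Cyp4a10, Cyp4a12a, Cyp4a14 and Cyp4a31. None of the 4 passed the test (smallest adjusted p = 0.697, edgeR). Cyp4a14 hydroxylates the omega end of medium and long chains. Over all 8 libraries it had the highest mean CPM of the 4, though not the highest FPKM. In Ctrl alone its mean was below those of Cyp4a10 (374 CPM) and Cyp4a12a (322 CPM), so that rank came from the SA libraries. Cyp4a14 had 354, 79.4, 475 and 249 CPM in Ctrl and 151, 727, 695 and 889 CPM in SA. SA 2, SA 3 and SA 4 lay above every Ctrl library, and SA 1 lay below 3 of the 4. The mean was 289 ± 168 CPM (SD, n = 4) in Ctrl and 616 ± 321 in SA, which gave a log2 fold change of 1.09 ± 0.52 (SE) with a 95% interval of -0.03 to 2.21 (unadjusted p = 0.0561, adjusted p = 0.828, edgeR).

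Cyp4a31 was far lower in counts, with 6.21, 3.31, 4.71 and 7.25 CPM in Ctrl and 7.44, 6.44, 20.0 and 7.81 CPM in SA. SA 3 stood above all others, and the other SA libraries were at or near the top of the Ctrl range. Its log2 fold change was 0.95 ± 0.37 (SE, 95% interval 0.16 to 1.75, unadjusted p = 0.0226, adjusted p = 0.697, edgeR). Without SA 3 it was 0.43 (unadjusted p = 0.143, edgeR), and without Ctrl 2 or Ctrl 3 its unadjusted p was 0.0597 and 0.0573. Cyp4a10, named here after its values were seen, had 351, 300, 424 and 421 CPM in Ctrl and 264, 475, 560 and 516 CPM in SA, again with SA 1 lowest and the other SA libraries above all Ctrl libraries. Its log2 fold change was 0.28 ± 0.22 (SE), and 0.16 without SA 3. Cyp4a12a had 0.16 ± 0.27 (SE), with Ctrl 1 at 136 CPM and the other 7 libraries at 317 to 415 CPM, and -0.10 without Ctrl 1.

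These genes share sequence and position. Cyp4a14, Cyp4a10, Cyp4a31 and Cyp4a32 follow each other on chromosome 4 in the RefSeq gene table, with a pseudogene between Cyp4a10 and Cyp4a31. Of the 100-base transcript windows, 35.8% of those of Cyp4a12a also occur in Cyp4a12b, and 12.7% of those of Cyp4a10 and 8.22% of those of Cyp4a31 occur in other genes, so these values are uncertain where reads were split between copies. No such window of Cyp4a14 occurs in another gene. Cyp4a12b, the near copy of Cyp4a12a, had a log2 fold change of -0.16.

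**Figure D2:**
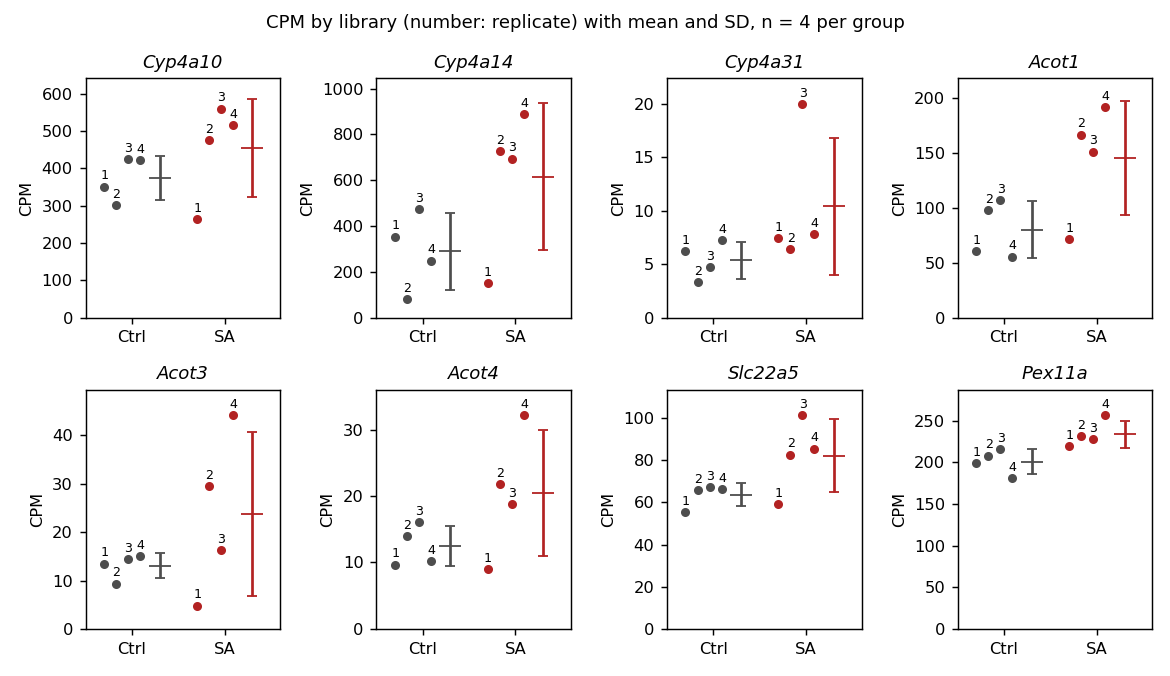
CPM of 8 genes by library (y axis, linear from 0, points numbered by replicate) for Ctrl and SA, with the mean and SD of 4 libraries beside the points. In Cyp4a10, Cyp4a14, Acot1, Acot3, Acot4 and Slc22a5 the libraries SA 2 to SA 4 lie above every Ctrl library while SA 1 does not, in Cyp4a31 SA 3 stands alone at 20.0, and in Pex11a all 4 SA libraries lie above all Ctrl libraries.

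The acyl-CoA thioesterases cut acyl-CoA back to free fatty acid and CoA. The 4 genes had log2 fold changes above 0, with a median of 0.79, and none passed the test. Acot1, the cytosolic enzyme and the most abundant of the 4, had 60.3, 97.3, 107 and 55.4 CPM in Ctrl and 71.0, 166, 151 and 191 CPM in SA. SA 2 to SA 4 were above every Ctrl library, and SA 1 was below 2 of the 4. The mean was 79.9 ± 25.8 CPM (SD, n = 4) in Ctrl and 145 ± 51.9 in SA, a 1.81-fold difference and a log2 fold change of 0.86 ± 0.29 (SE, 95% interval 0.23 to 1.48). The unadjusted p of 0.0112 was the smallest of all 36 genes, and the adjusted p was 0.571 (edgeR).

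Acot4, a peroxisomal thioesterase, had 9.69, 13.9, 16.1 and 10.2 CPM in Ctrl and 9.05, 21.8, 18.8 and 32.1 CPM in SA. SA 1 was the lowest of the 8 libraries and the other SA libraries were the top 3, with a log2 fold change of 0.72 ± 0.31 (SE, 95% interval 0.04 to 1.40, unadjusted p = 0.0384, adjusted p = 0.782, edgeR). Without SA 4 it was 0.40 (unadjusted p = 0.197, edgeR), and without Ctrl 1, Ctrl 4 or SA 2 its unadjusted p was 0.0957, 0.0968 and 0.0706. Acot3, also peroxisomal and named after its values were seen, had 13.5, 9.38, 14.4 and 15.0 CPM in Ctrl and 4.83, 29.5, 16.3 and 44.2 CPM in SA. It spread more between SA libraries than between the groups, and its log2 fold change of 0.87 ± 0.46 (SE) had an unadjusted p of 0.0842 (adjusted p = 0.904, edgeR). Acot3 had 0.36 without SA 4 and 0.55 with the replicate number as a block. The mitochondrial enzyme Acot2 had 0.04 ± 0.20 (SE), with 19.7 to 26.2 CPM in Ctrl and 16.8 to 31.8 CPM in SA.

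Acot2, Acot1, Acot4 and Acot3 lie in this order on chromosome 12, followed by Acot5 and Acot6. Acot6 had a log2 fold change of -0.37, with 5.19 ± 1.08 CPM (SD, n = 4) in Ctrl and 4.02 ± 0.90 in SA, and Acot5 had at most 1 count in any library. Neighbours in the cluster therefore had values on both sides of 0. The 95% interval of Acot6, -0.90 to 0.17, included 0 (unadjusted p = 0.166, edgeR), so a lower level in SA is not shown. Acot1 shares 16.5% of its 100-base transcript windows with Acot2, and reads from the shared windows cannot be assigned to either without the authors' counting rule. Slc22a5 shares 13.7% of its windows with Slc22a21, a neighbour at 0.34 to 1.88 CPM.

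Since Acot1, Acot4 and Acot3 had log2 fold changes of 0.72 to 0.87 and their neighbour Acot2 had 0.04, the 150 bases before each start site are shown in chromosomal order, from RefSeq (GRCm38.p6, plus strand, each at 5′ to 3′, Acot2 at chr12:83987711-83987860, Acot1 at chr12:84009352-84009501, Acot4 at chr12:84038229-84038378 and Acot3 at chr12:84051994-84052143). Capitals mark AGGTCA on either strand, the hexamer bound by nuclear receptors of the PPARalpha kind.
Acot2: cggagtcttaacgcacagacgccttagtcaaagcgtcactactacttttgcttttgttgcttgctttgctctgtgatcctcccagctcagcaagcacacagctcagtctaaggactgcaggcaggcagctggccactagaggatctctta
Acot1: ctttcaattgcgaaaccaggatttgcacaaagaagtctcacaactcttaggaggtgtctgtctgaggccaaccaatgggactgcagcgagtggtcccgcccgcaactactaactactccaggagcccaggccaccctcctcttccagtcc
Acot4: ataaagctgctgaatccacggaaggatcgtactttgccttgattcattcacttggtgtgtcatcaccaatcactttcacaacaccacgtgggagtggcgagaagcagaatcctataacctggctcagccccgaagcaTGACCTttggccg
Acot3: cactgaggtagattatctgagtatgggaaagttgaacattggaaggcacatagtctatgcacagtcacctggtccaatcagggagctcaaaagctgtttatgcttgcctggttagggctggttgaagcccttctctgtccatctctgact

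By global alignment the 4 windows were identical in 46.6 to 51.2% of columns in each pair. The same measure over 325 pairs of 26 other member promoters had a median of 48.1% and a range of 35.7 to 60.4%. The identities among the thioesterase genes lay within that range. Within these 4 windows, the only hexamer was in Acot4. Acot3 has 2 start sites, and the window shown belongs to the upstream one. In the longer promoters of 300 bases searched below, Acot4 held 1 hexamer, and Acot1 and Acot2 held 0. Acot3 held 1 in the promoter of each start site. These promoters overlap (chr12:84051894-84052193 and chr12:84051901-84052200), so it may be the same hexamer.

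PPARalpha binds, with its partner RXR, a direct repeat of that hexamer with 1 base between the copies. The motif AGGTCANAGGTCA was searched on both strands with at most 2 mismatches among its 12 fixed letters, in the 300 bases from 250 before to 50 after each RefSeq start site. Of the 39 members, 30 had a promoter sequence that was used here (34 promoters), and 5 of the 34 promoters held a match (14.7%), beside 3.86% of all 32851 promoters of this length. The hexamer itself was in 8 of the 34 promoters, which belong to 7 members, beside 16.3% of all promoters. A match is a description of letters, and binding was not measured. Cyp4a10, Cyp4a12a, Cyp4a14 and Cyp4a31 had no entry in the promoter table. The 5 matches are given below in capitals with their flanks, since they show how near each comes to the motif. Each is written 5′ to 3′ along its gene, and the matches of Acot4 and Etfa read as the motif on the opposite strand. The windows are Acot4 at chr12:84038342-84038402 (plus strand), Creb3l3 at chr10:81092764-81092824 (minus strand), Etfa at chr9:55512284-55512344 (minus strand), Slc25a20 at chr9:108662118-108662160 (plus strand) and Ucp3 at chr7:100472916-100472976 (plus strand), all GRCm38.p6.
Acot4: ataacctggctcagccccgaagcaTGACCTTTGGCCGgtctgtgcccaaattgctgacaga
Creb3l3: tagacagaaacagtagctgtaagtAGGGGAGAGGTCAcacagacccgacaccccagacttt
Etfa: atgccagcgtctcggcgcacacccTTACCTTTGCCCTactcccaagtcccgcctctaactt
Slc25a20: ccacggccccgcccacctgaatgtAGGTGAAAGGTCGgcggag
Ucp3: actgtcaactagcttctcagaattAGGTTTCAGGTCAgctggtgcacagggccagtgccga

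Each of the 5 matches had 2 mismatches. Counted from the start site as base 1, they lie at -13 to -1 in Acot4, -209 to -197 in Creb3l3, -77 to -65 in Etfa, 7 to 19 in Slc25a20 and -51 to -39 in Ucp3. Of these genes, Acot4 had the log2 fold change of 0.72 given above, while Creb3l3, Etfa and Slc25a20 had 0.07, -0.21 and 0.15. Ucp3, an uncoupling protein of muscle and brown fat, had 0 to 11 counts a library and was not tested. Creb3l3 has 2 start sites, and its match lies at the downstream one. Its upstream promoter (chr10:81098823-81099122) held no match, with 4 mismatches at the fewest. The promoter of Acot1 held no match and came no closer than 4 mismatches.

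Activation and carnitine supply were next in size. Acsl1, the main acyl-CoA synthetase of liver, had 1213, 1673, 1517 and 1964 CPM in Ctrl and 1321, 1884, 2125 and 2216 CPM in SA, with overlap between the groups and a log2 fold change of 0.25 ± 0.20 (SE), and of 0.13 without Ctrl 1. Slc22a5, the plasma membrane carnitine transporter OCTN2, had 55.5, 65.9, 67.2 and 66.3 CPM in Ctrl and 59.2, 82.6, 101 and 85.4 CPM in SA. SA 2 to SA 4 lay above every Ctrl library and SA 1 lay among the lowest 2. The log2 fold change was 0.37 ± 0.17 (SE, 95% interval 0.01 to 0.72, unadjusted p = 0.0455, adjusted p = 0.797, edgeR), and 0.25 without SA 3 (unadjusted p = 0.165, edgeR). Its unadjusted p stayed under 0.05 only without SA 1 or Ctrl 4 among the 8 libraries left out in turn. Crat, which moves short acyl groups between CoA and carnitine, had 119, 106, 109 and 146 CPM in Ctrl and 113, 131, 134 and 141 CPM in SA, a log2 fold change of 0.11.

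Pex11a, a peroxisomal membrane protein that acts in peroxisome division, was the one member without overlap between the groups. It had 199, 208, 216 and 182 CPM in Ctrl and 219, 231, 228 and 257 CPM in SA, so every SA library lay above every Ctrl library. The difference was small, 201 ± 14.6 against 234 ± 16.0 CPM (SD, n = 4), with a log2 fold change of 0.22 ± 0.13 (SE, unadjusted p = 0.114, adjusted p = 0.939, edgeR). That is 1 of 36 members (2.78%), beside 1.66% of all tested genes with SA above Ctrl throughout. No member had all SA libraries below all Ctrl libraries, which 1.46% of the tested genes had. In the FPKM table the groups of Pex11a overlapped, at 85.4 to 146 in Ctrl and 121 to 152 in SA. The kinase Pdk4, which shuts pyruvate out of oxidation, had -0.29 ± 0.22 (SE), and the pantetheinase Vnn1 had -0.20 ± 0.16 (SE).

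The 2 transcription factors were Ppara itself and Creb3l3, a liver factor that acts with PPARalpha in fasting. Ppara had 154, 227, 310 and 338 CPM in Ctrl and 360, 297, 341 and 231 CPM in SA. Ctrl 1 was the lowest and SA 1 the highest of the 8 libraries, and the log2 fold change was 0.26 ± 0.23 (SE, 95% interval -0.24 to 0.76, adjusted p = 0.996, edgeR). Without Ctrl 1 it was 0.07. Creb3l3 had 425, 526, 425 and 303 CPM in Ctrl and 462, 422, 422 and 454 CPM in SA. In CPM it was narrower in SA than in Ctrl, with a log2 fold change of 0.07. In the FPKM table it was at only 0.44 to 1.29 in Ctrl and 0.83 to 2.26 in SA. The SD there was 0.38 in Ctrl and 0.73 in SA, so its level and spread are uncertain. SA 1, highest for Ppara, was thus the lowest or near the lowest library for Cyp4a10, Cyp4a14, Acot3 and Acot4.

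The pattern across libraries was uneven. SA 1 was the lowest of the 4 SA libraries for 17 of the 36 tested genes and the lowest of all 8 for 9. SA 4 was the highest of the SA libraries for 28 genes and of all 8 for 17. Averaged over the 4 omega-hydroxylases, the deviation from each gene's own mean (log2 CPM) in Ctrl 1 to 4 was -0.40, -0.86, 0.08 and -0.04, and in SA 1 to 4 it was -0.39, 0.34, 0.82 and 0.46. For the 4 thioesterases it was -0.34, -0.27, 0.04 and -0.40 in Ctrl and -0.83, 0.50, 0.28 and 1.01 in SA. SA 1 was thus inside the Ctrl range for the omega-hydroxylases and below it for the thioesterases, and Ctrl 3 was the highest Ctrl library for both.

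**Figure D3:**
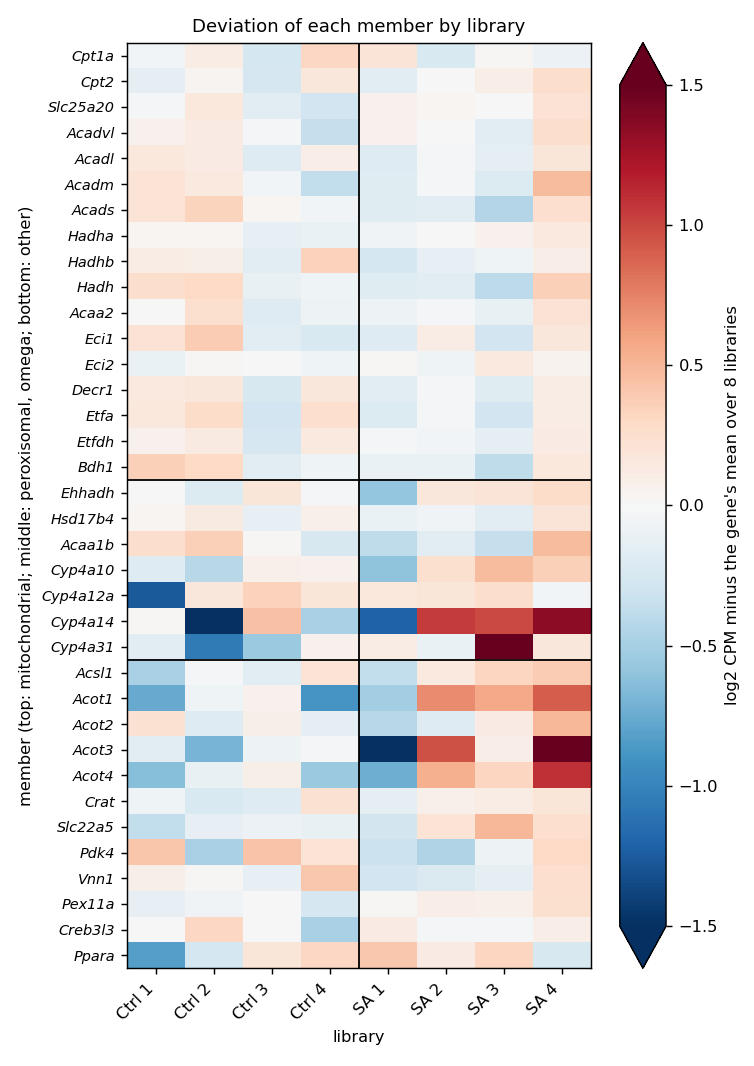
Log2 CPM of each tested gene minus its own mean over 8 libraries (colour, cut at -1.5 and 1.5), with genes in rows and libraries in columns. The mitochondrial rows at the top stay pale in all libraries, and Cyp4a14, Acot1, Acot3 and Acot4 are dark red in SA 4 and blue in SA 1.

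The libraries SA 2, SA 3 and SA 4 were all above every Ctrl library for 7 genes, a description made after the values were seen. These were Cyp4a10, Cyp4a14, Acot1, Acot3, Acot4, Slc22a5 and Pex11a. They are 7 of 36 members (19.4%), beside 3.31% of all tested genes. Without SA 1, 7 members were under an unadjusted p of 0.05 with edgeR, all higher in SA, beside 2.67% of all genes higher at that limit. They were Acot1 (log2 fold change 1.09), Acot3 (1.20), Acot4 (0.97), Cyp4a14 (1.41), Cyp4a31 (1.08), Cyp4a10 (0.47) and Slc22a5 (0.50). None passed the adjusted threshold, with adjusted p from 0.179 for Acot1 to 0.619 for Cyp4a10 (edgeR). Over all genes, the number past the threshold was 19 without SA 1 and 2 with it. No label sets SA 1 apart from the other SA libraries.

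The contrast between routes was taken within each library as the mean log2 CPM of one set of genes minus that of the 17 mitochondrial genes, in which the scaling of a library cancels. For the 7 peroxisomal and omega genes together the Ctrl libraries gave -0.16, -0.50, 0.34 and 0.09, and the SA libraries gave -0.15, 0.37, 0.69 and 0.34. The means were -0.06 ± 0.36 and 0.31 ± 0.35 (SD, n = 4), a difference of 0.37 that is about the size of 1 SD, and the groups overlapped. Leaving out 1 library at a time, the difference ranged from 0.22 without Ctrl 2 to 0.53 without SA 1, and it was 0.24 without SA 3. It was also 0.24 without Cyp4a14.

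The routes were then taken separately. For the 3 peroxisomal genes the gap to the mitochondrial genes averaged 1.86 ± 0.12 (SD, n = 4) in Ctrl and 1.84 ± 0.17 in SA, a difference of -0.03. For the 4 omega-hydroxylases it was -1.50 ± 0.56 in Ctrl and -0.83 ± 0.51 in SA, a difference of 0.67, and 0.88 without SA 1. The thioesterases, which were not part of the contrast, had -3.74 ± 0.31 and -3.21 ± 0.69, a difference of 0.53, and 0.87 without SA 1. The values of the groups overlapped in each of these. No p is given for these means, since the genes were chosen with results of these libraries known.

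**Figure D4:**
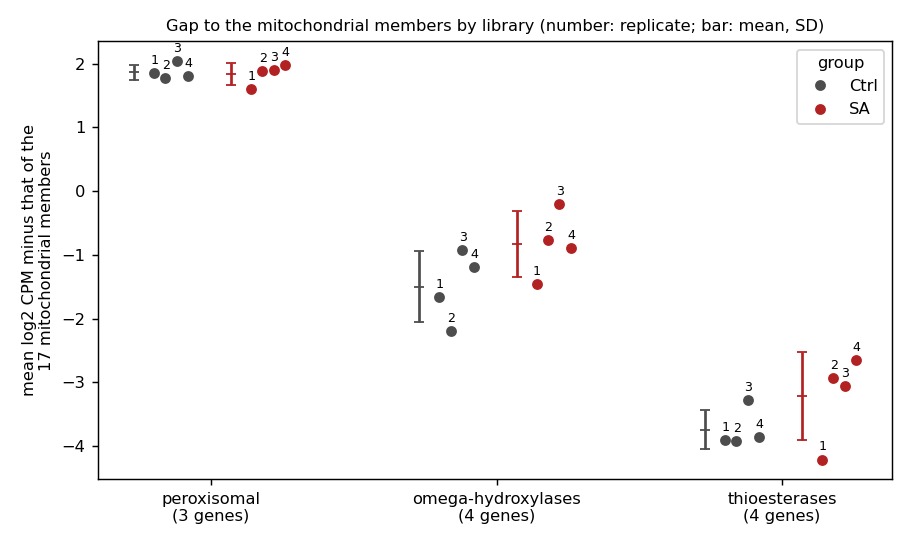
Mean log2 CPM of 3 sets of genes minus that of the 17 mitochondrial members (y axis), by library (points, numbered by replicate) with mean and SD of 4 libraries. The peroxisomal genes differ by -0.03 between SA and Ctrl, the omega-hydroxylases by 0.67 and the thioesterases by 0.53, with SA 1 inside or below the Ctrl points in each set.

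Other genes of the same pathways, in 3 lists apart from the 39 members, gave no call with edgeR and 1 with DESeq2. Of 126 listed genes 125 were in the table and 109 were tested, with 4 higher and 6 lower at an unadjusted p under 0.05 (edgeR). Over all tested genes, 2.91% were higher and 3.29% lower at that limit. Among 61 other fatty acid oxidation genes the median log2 fold change was -0.02, and 2 were higher and 2 lower at that limit. The acyl-CoA dehydrogenase family gene Acad12 had -0.70, with 25.1 to 31.1 CPM in Ctrl and 11.1 to 21.7 CPM in SA and no overlap. The synthetase Acsl4 had -0.55, while Cyp4a32 had 0.48 and the branched-chain peroxisomal oxidase Acox2 had 0.36, both without overlap.

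Ketone body genes had a median of -0.18 over 9 tested genes, with 0 higher and 1 lower at an unadjusted p under 0.05. That gene was Aacs, the cytosolic synthetase that returns acetoacetate to lipid synthesis, at 61.8 to 150 CPM in Ctrl and 51.8 to 70.5 CPM in SA (log2 fold change -0.86, adjusted p = 0.480, edgeR). The monocarboxylate carrier Slc16a1 had -0.27 and Bdh2 had 0.38.

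Other PPARalpha targets and partners had a median of 0.09 over 43 tested genes, with 2 higher and 3 lower at that limit. The lower ones were the desaturase Fads2 (-0.67), the lipid droplet protein Cidec (-0.94) and Pparg (-0.56), each with all SA libraries below all Ctrl libraries. Fads2 had an adjusted p of 0.345 with edgeR and of 0.0155 with DESeq2, the one call in these lists by either tool. The droplet protein Plin5 had 0.34. Adipocyte markers, a group in which Cidec and Pparg are also known to be expressed, summed to 89.9 to 217.5 CPM in Ctrl and 34.5 to 105 CPM in SA, with Lep at 0 throughout and 3 of 7 markers tested. Their part in these values was not tested. The hepatokine Fgf21 had -0.12, Angptl4, an inhibitor of lipoprotein lipase, had -0.09, and the droplet protein Plin2 had -0.30, without a call for any of these PPARalpha targets. The 2 acetyl-CoA carboxylase genes, whose product inhibits Cpt1a, had -0.12 (Acaca) and -0.07 (Acacb).

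Levels of different genes can be set against each other only per length, in the FPKM table. Averaged over the 8 libraries, Acaa1b was at 2542 FPKM, Acaa2 at 992 and Acsl1 at 537, while Acot1 was at 77.9 and Acot2 at 19.8. Cyp4a10 was at 281.4 and Cyp4a14 at 252.5, the reverse of their order in mean CPM. The FPKM table held 36 of the 39 members, without Cyp4a31, Acot3 and Ucp3. Of the 34 members with values in both tables, 32 had the same sign of difference, and 7 differed by more than 0.2 in log2 fold change.

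The ratio of FPKM to CPM varied by more than 1 log2 unit between libraries in 6 members: Crat (5.44), Hadhb (3.98), Eci2 (2.95), Acsl1 (2.28), Creb3l3 (1.76) and Eci1 (1.13). Such a range was found in 40.0% of the 7940 genes in both tables. Hadhb was at 64.1, 57.2, 56.8 and 61.4 FPKM in Ctrl and 17.7, 3.72, 22.4 and 63.9 FPKM in SA, while its CPM was 224 to 319 in Ctrl and 210 to 269 in SA. With limma on log2(FPKM + 1) it had -1.67 (unadjusted p = 0.0364, adjusted p = 0.999), the one member under an unadjusted p of 0.05 in that table, where 1.69% of genes were lower at that limit. More of the 100-base windows of Hadhb occur in another annotated transcript (52.8%) than of any other tested member. Acsl1 had 156 FPKM in SA 2 and 438 to 791 FPKM in the other libraries, which turned its difference to -0.26. For Acot1 both tables gave nearly the same value, 0.86 from counts and 0.88 from log2(FPKM + 1), and for Cyp4a14 1.09 and 1.10.

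**Figure D5:**
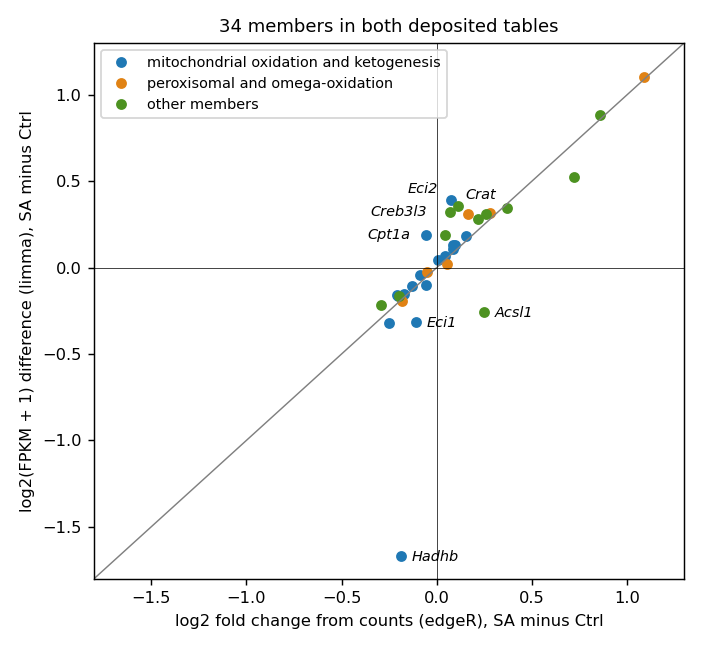
Difference in log2(FPKM + 1) between SA and Ctrl (y axis, limma) against the log2 fold change from counts (x axis, edgeR) for the 34 members in both tables, with the line of equality. Named points differ by more than 0.2, and Hadhb lies farthest from the line at -0.19 from counts and -1.67 from FPKM.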

How the data were processed

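RNA was taken from frozen liver and made into libraries with a NEBNext Ultra kit, which the labels do not call strand-specific. The authors deposited whole-number read counts per gene without normalization, and a separate table of FPKM values. FastQC 0.19.7, HISAT2 and StringTie 2.2.1 and the builds GRCm39 and mm10 are named, per the submitters' processing notes. The counting program and its build are not given in the sources used here.

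Samples were grouped by title, 4 SA and 4 Ctrl. The labels do not say that these are 8 animals, and p-values rest on the spread between samples, which may be technical. Counts were tested with edgeR 4.0.16 in R 4.3.3 (TMM factors, filterByExpr, quasi-likelihood F test, no block, biological coefficient of variation 22.6%), which left 12358 genes, with a Benjamini-Hochberg adjusted p under 0.05 as the threshold. CPM are counts over TMM-scaled library sizes. The titles state no pairing of same-numbered libraries. The 4 correlations of their deviations from the group means were -0.25 to 0.26, which cannot exclude a pairing by design. Total counts of 14114145 to 28184001 set the counting error. No 2 libraries of the same group agreed within sampling noise, and pairs across the groups were not compared.

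The members and lists were chosen with earlier results of these data known. Values in every library are given for members with an unadjusted p under 0.05 or without overlap between groups. They are also given for the members highest in mean CPM in their role, over the libraries of both groups, and for Ppara, Cpt1a and Creb3l3. From the pathway lists, up to 4 genes with the smallest p are named, with a few fixed genes in any case, and some of these are not reported here. Alternatives were DESeq2 1.42.0, testing every gene with a count, testing genes that reach 1 CPM in 4 libraries, RLE or upper quartile scaling, limma 3.58.1 on log2(FPKM + 1) and log2(FPKM + 0.1), each library left out, and the replicate number as a block. The other definitions of the contrast between routes were added after seeing the data. Promoters are from RefSeq, and transcripts for shared windows from GENCODE M21.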

Additional observations from a re-analysis of the deposited data

Results flagged for a closer look

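In 72 groups of 4 libraries (36 tested genes in each of 2 groups), 5 had 1 library far from the others by Dixon's test, where chance gives about 1 in 20. For Decr1 that library was Ctrl 3 with 224.4 CPM, against 295 to 299.3 CPM for the rest of Ctrl. For Ehhadh it was SA 1 with 399.9 CPM, against 675 to 723 CPM for the rest of SA. Cyp4a12a in Ctrl 1 had 135.6 CPM, against 367.2 to 414.9 CPM for the rest of Ctrl. Cyp4a31 in SA 3 had 19.99 CPM, against 6.444 to 7.81 CPM for the rest of SA. Slc22a5 in Ctrl 1 had 55.48 CPM, against 65.91 to 67.16 CPM for the rest of Ctrl.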

How the results depend on the processing

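No member passed the adjusted threshold under any of the 17 alternatives, and the smallest adjusted p was 0.179 (Acot1 without SA 1, edgeR). Acot1 stayed above 0 in each of them, with an unadjusted p under 0.05 in every fit of the counts and of 0.0512 with log2(FPKM + 1). Over all genes, the number past the threshold was 60 with DESeq2, 8 without the low-count filter and 0 to 19 with 1 library left out (0 without Ctrl 4, 19 without SA 1). Members under an unadjusted p of 0.05 numbered 4 in the main test, 1 with each of the 3 FPKM settings (Hadhb in each, with -1.67 or -1.76), and 2 to 7 with 1 library left out (2 without Ctrl 1, SA 2 or SA 3, and 7 without SA 1). With 1 library left out, not all of these members were higher in SA. Acads was lower without SA 4 (-0.40, unadjusted p = 0.0315, edgeR). Pdk4 was lower without Ctrl 2 (-0.46, unadjusted p = 0.0438, edgeR). With the replicate number as a block, 6 genes passed and 4 members were under an unadjusted p of 0.05. Those members were Acot1, Acot4, Cyp4a31 and Slc22a5. DESeq2 called 1 of the other pathway genes. The contrast between routes went from 0.37 to -0.02516 with peroxisomal genes alone.

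Of 606 values of single members, 27 changed sign, in 10 members, and the other 26 tested members kept their sign throughout. With the 3 FPKM settings Cpt1a had 0.1859, 0.1867 and 0.1859 and Acsl1 had -0.2551, -0.2563 and -0.2551. Acaa2 had -0.005373 with RLE factors, -0.03272 with upper quartile factors, -0.002537 with DESeq2 and -0.002698 with the CPM filter. With 1 library left out, Cpt1a ranged from -0.1469 to 0.03274, Acadvl from -0.01055 to 0.1519, Acadm from -0.1417 to 0.1184, Acaa2 from -0.08039 to 0.09899 and Eci1 from -0.2057 to 0.013. Ehhadh ranged from -0.03524 to 0.2171, Cyp4a12a from -0.09846 to 0.3098, Acot2 from -0.1624 to 0.1688 and Creb3l3 from -0.06836 to 0.1994. The median of the 36 members ranged from -0.02 to 0.10. The cause was not tested for any of these. With 4 libraries a group the median SE of a member was 0.17 on the log2 scale, beside 0.20 over all genes, which sets the size of difference that could be seen.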
